A study of Cinachyrella cavernosa with 3 samples.

Results

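In the marine demosponge Cinachyrella cf. cavernosa, 128 coding sequences (CDS) had at least 50 reads both before a wound and after regeneration and were not listed at all in the table made during regeneration. They are 128 of the 3229 coding sequences listed in any of 3 messenger RNA libraries. The members were chosen by these same read counts and by their absence from the during table, so their levels and their absence are given as descriptions and not as tests. What decided whether a sequence was listed is not given in the sources used here, and absence is not read as 0 reads.

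The study followed sponge tissue through wound healing, with 1 library before the wound, 1 during regeneration and 1 after it, and no replicates. All sponges were acclimatised for 2 weeks in natural sea water in tanks of about 100 litres, fed, and moved in groups of 3 to tanks of about 25 litres, where wounds of about 10% of the volume of a sponge were made in imitation of fish bites. The sources used here do not say at what hour or day each library was taken or how many sponges it holds. The tables listed 1928, 1769 and 2127 coding sequences before, during and after, with 773142, 1062098 and 965464 reads. Every read count was even, so intervals below are on read pairs and cover counting error only. The tables give identifiers without gene names or sequences, so no member could be given a function and the tissue could not be checked against cell markers.

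Sponges are built of few cell types: flagellated choanocytes that drive water through the body, pinacocytes that line its surfaces, and mobile cells in the matrix between them, among which archaeocytes are known as stem cells in several demosponges. In other demosponges, wound closure is known to involve movement of matrix cells to the wound, and archaeocytes and choanocytes can turn into other cell types. In bulk tissue such as this, fewer cells of a type and less RNA per cell cannot be told apart.

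Absence from the during table reached further into abundant coding sequences than absence from the other tables. Of 709 coding sequences with at least 50 reads before and after, the 128 members make up 18.1%. The same rule turned to the other libraries left 51 of 613 (8.32%) unlisted before the wound and 13 of 540 (2.41%) unlisted after regeneration. At 200 reads or more in both other libraries, 46 of 331 (13.9%) were unlisted during regeneration, against 1 of 252 (0.397%) before the wound and 0 of 222 after regeneration. At 500 reads or more the numbers were 11 of 144, 0 of 102 and 0 of 87. The 11 include a set of 4 and a set of 2 with the same length and identical counts. All these shares count every coding sequence, also those with the same length and identical counts. Counted once per such set, 105 of 638 (16.5%) with at least 50 reads were unlisted during regeneration. Absence from the other libraries and the higher minimums were not recounted this way, so the 16.5% has no like share beside it. The minimums were also not scaled, and by TMM-scaled size (described below) the during library was the smallest, at 802356 against 932704 before and 1059373 after. By listed reads it was the largest, at 1062098 against 773142 before and 965464 after. The shares rest on the same 3 libraries, and with 1 library a stage their difference was not tested.

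**Figure D1:**
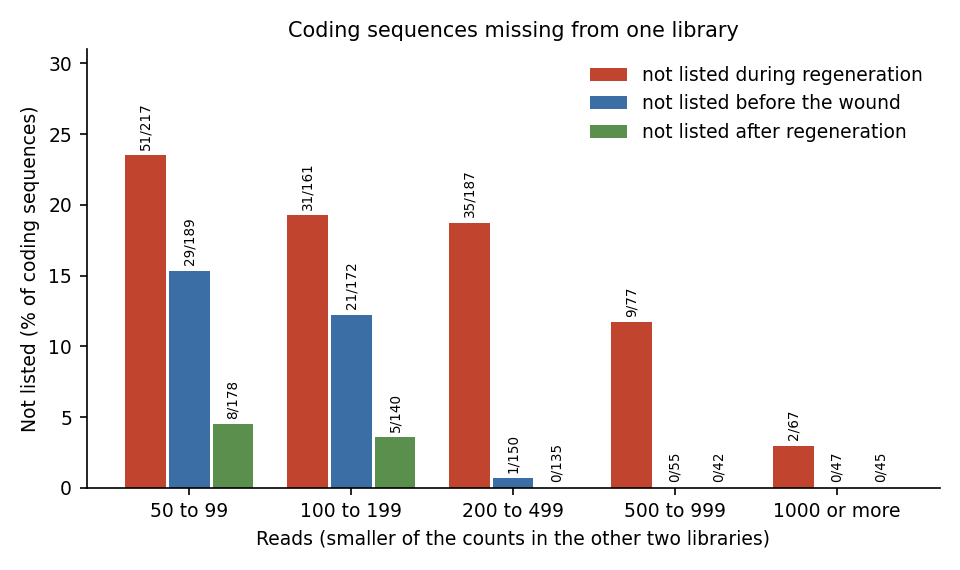
Share of coding sequences (percent) not listed in 1 library, by the smaller of their read counts in the other libraries; bars are coloured by the library they are missing from, and the numbers are missing over all. Coding sequences with the same length and identical counts are each counted. From 200 reads upward the bars above 0 belong to the library made during regeneration (35 of 187, 9 of 77 and 2 of 67), except for 1 of 150 before the wound.

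CDS_50279_Unigene_78645 stood far above the other members. It is 837 bases long, with 18214 reads before the wound and 15904 reads after it had regenerated. It ranked 10 by reads before and 11 after, and 15 and 17 by FPKM (fragments per kilobase, scaled to library size), a level per length. It took 2.36% of the reads listed before the wound (95% exact binomial interval 2.31 to 2.40) and 1.65% of those listed after regeneration (1.61 to 1.68). FPKM values can divide a read among several sequences, and here FPKM kept 95.4% and 100% of the read pairs before and after. Had its level stayed as before or after, 12045 to 25021 reads would have been projected during regeneration, depending on the reference library and on the scaling. The sequences listed during regeneration only reached at most 1384 reads.

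CDS_29647_Unigene_46243 (1554 bases) came next, with 3408 reads before and 2694 after. Its near neighbour in the numbering, CDS_29645_Unigene_46241 (1050 bases), had 938 and 1066 reads, of which FPKM kept 2.87% and 2.28%. A set of 4 coding sequences of 429 bases with identical counts, CDS_6425_Unigene_9925 to CDS_6428_Unigene_9928, each had 1116 reads before and 512 after. FPKM kept 25.0% and 24.4% of the pairs of each, close to an equal division over the 4.

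The pair CDS_59385_Unigene_92776 and CDS_62790_Unigene_98134, both of 378 bases, had the same 914 reads before and 1124 after. FPKM was 0 in both libraries for the first and 6731 and 6626 for the second, which kept 98.4% and 98.5% of the pairs. CDS_44982_Unigene_70356 (462 bases) had 730 and 998 reads, CDS_37916_Unigene_59323 (408 bases) 734 and 780, and CDS_16411_Unigene_25438 (1269 bases) 396 and 718.

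The bulk of the members lay lower. Their median was 171 reads before (lowest 50, highest 18214) and 168 after (50 to 15904), and 51 of the 128 had under 100 reads in a library. Together they accounted for 6.93% (95% interval 6.85 to 7.01) of the reads listed before the wound and 5.13% (5.07 to 5.2) of those listed after regeneration. CDS_50279_Unigene_78645 alone made up 34.0% and 32.1% of the members' reads, and without it the shares were 4.57% and 3.49%. Members with identical counts were each summed, and the intervals do not cover reads that may be counted more than once in this way. The shares were 5.96% and 4.34% by FPKM fragments, and 6.15% and 4.38% with 1 per set of identical counts. With ties taken by identifier, those just inside the minimum were CDS_11065_Unigene_17021 with 60 reads before and 50 after, CDS_24688_Unigene_38293 with 68 and 50, and CDS_33209_Unigene_51783 with 90 and 50. Other members also had 50 reads as their smaller count. Just outside were CDS_16111_Unigene_24954 with 134 and 48, CDS_27213_Unigene_42386 with 48 and 58, and CDS_28306_Unigene_44092 with 48 and 106.

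The next question was how far the members had the same level after regeneration as before the wound. Counts were scaled by library total and a TMM factor to counts per 1000000 (CPM), and differences are on the log2(CPM + 1) scale. Of the 128 members, 97 (75.8%) lay within 2-fold, against 460 of the 581 (79.2%) that met the same minimum and were also listed during regeneration. The median difference, after minus before, was -0.18 for the members, -0.07 for the 581 and -0.10 for all 709. At least 2-fold higher after regeneration were 9 members (7.03%), beside 9.73% of all 709. At least 2-fold lower were 22 members (17.2%), beside 11.7% of all 709 and 10.5% of the 581. By deposited FPKM, 16 of 125 members (12.8%) were at least 2-fold higher and 21.6% lower, beside 10.6% and 18.9% of the 577 others with a value, so the order of the higher shares turned. At least 4-fold, 0 members were higher and 1 lower, beside 0.705% and 1.27% of all 709. With 1 library a stage none of these shares was tested against another.

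**Figure D2:**
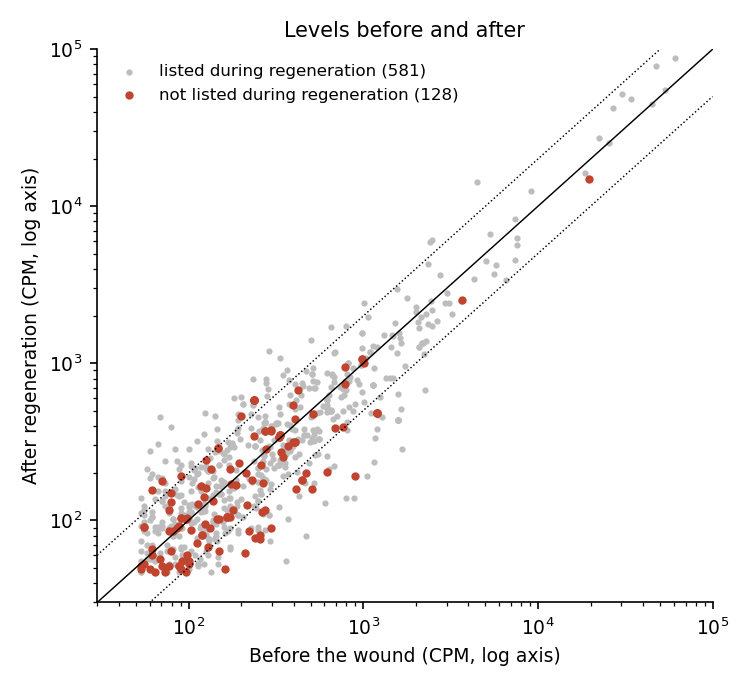
Level (CPM, log axes) before the wound against after regeneration for the 709 coding sequences with at least 50 reads in both; red points are the 128 members and grey points the 581 that were also listed during regeneration. The solid line marks equal levels and the dotted lines 2-fold; 97 red points lie between the dotted lines.

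The member farthest apart was CDS_1806_Unigene_2807 (1560 bases), with 832 reads before and 202 after. Its log2 difference was -2.22 (95% interval from an exact conditional binomial -2.55 to -1.91), a level 4.66-fold lower after regeneration. CDS_53253_Unigene_83297 (561 bases) had 276 and 94 reads, at -1.73 (-2.25 to -1.25). CDS_16748_Unigene_25952 (876 bases) had 196 and 66 reads, at -1.74 (-2.37 to -1.17). FPKM kept at least 98% of the pairs of the latter 2.

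CDS_32677_Unigene_50949 (375 bases) had 240 and 80 reads and a difference of -1.76 (-2.32 to -1.24), with 33.4% and 28.2% of its pairs kept. CDS_21265_Unigene_33048 (429 bases) had 150 and 52 reads, at -1.69 (-2.42 to -1.05), with 25.9% and 22.8% kept. The 4 sequences from CDS_6425_Unigene_9925 on were also among the 22, at -1.31 (-1.53 to -1.09). Of the 22, 4 kept at least 90% of their pairs in both libraries, and the remaining ones kept less.

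In the other direction, CDS_26419_Unigene_41128 (411 bases) had 58 reads before and 166 after, at 1.32 (0.71 to 2.0). CDS_13405_Unigene_20712 (1068 bases) had 66 and 188 reads, at 1.31 (0.74 to 1.95). FPKM kept at least 96% of the pairs of both. Of the 9 higher members, 5 were a single set of 390 bases with identical counts. These were CDS_40542_Unigene_63458, CDS_40543_Unigene_63459, CDS_40544_Unigene_63460, CDS_41169_Unigene_64439 and CDS_41190_Unigene_64477, with 220 reads before and 622 after in each, at 1.31 (1.00 to 1.64). FPKM kept 19.7% of the pairs of each in both libraries. Counted once per set, 5 of 105 members were higher and 18 lower, and the other coding sequences were not counted this way.

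**Figure D3:**
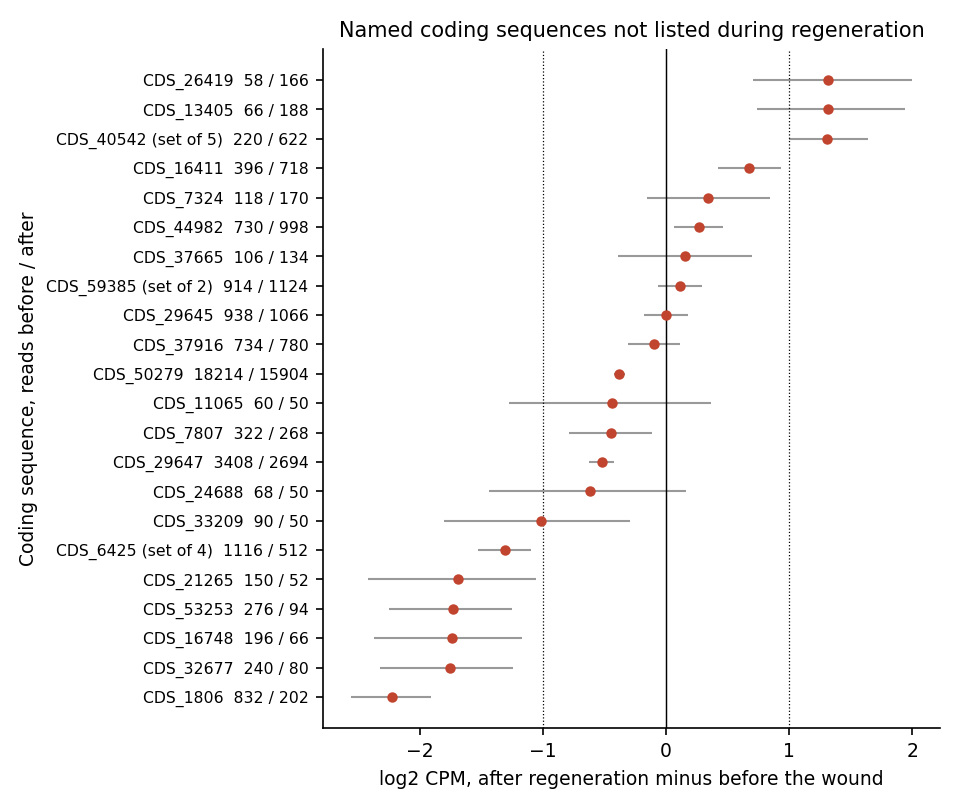
Log2 difference in CPM, after regeneration minus before the wound, for the named members, with 1 point per set of identical counts; bars are 95% counting intervals and the labels give reads before and after. Values run from -2.22 for CDS_1806 to 1.32 for CDS_26419, and the dotted lines mark 2-fold.

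Identical counts and pairs lost in FPKM were both seen in a larger share of members than of the 581. Both measures are built in part from the read counts that chose the members, which were also lower than those of the 581 (median 171 against 244 before the wound), so they are descriptions. First, 37 members (28.9%) fell into 14 sets with the same length and identical counts, the largest of 5, against 84 of the 581 (14.5%). Counted once per set the members number 105. Second, in both libraries at least 90% of the pairs were kept by FPKM for 39 members (30.5%) and for 361 of the 581 (62.1%). Under 50% was kept in a library for 63 members (49.2%) and for 151 of the 581 (26.0%). The median FPKM was lower in members, at 370 before and 288 after against 958 and 861. No test applies, since coding sequences that share reads are not independent.

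Such sets were mostly listed or unlisted together. Equal length and counts do not show equal sequence, and no sequences were compared. Among the 709 there were 51 sets of at least 2 with equal length, before count and after count. During regeneration 35 sets were listed whole, 14 were missing whole, and 2 were split. In the first split set CDS_33209_Unigene_51783 was missing, while CDS_47454_Unigene_74267, with the same 375 bases and the same 90 and 50 reads, was listed with 16 reads during regeneration. In the second CDS_51397_Unigene_80300 (357 bases, 94 and 56 reads) was missing and CDS_36222_Unigene_56642 was listed with 30 reads.

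Members were also longer, with a median of 445.5 bases (300 to 2466) against 390 (288 to 2865) for the 581. Of coding sequences under 350 bases with the read minimum, 21 of 210 (10.0%) were unlisted during regeneration, and of those with 900 bases or more 25 of 67 (37.3%). Length moved with absence from another library too: unlisted before the wound were 1 of 177 (0.565%) under 350 bases and 20 of 66 (30.3%) from 900 bases. The 3 longest members were CDS_7324_Unigene_11306 (2466 bases, 118 reads before and 170 after), CDS_37665_Unigene_58943 (2370 bases, 106 and 134) and CDS_7807_Unigene_12036 (2013 bases, 322 and 268). For the last, FPKM kept 4.04% and 23.7% of the pairs.

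Length and the share of pairs kept each went with absence in part of the range. Counted once per set, 16 of 284 (5.63%) coding sequences under 450 bases that kept at least 90% of their pairs were unlisted during regeneration, against 30 of 113 (26.5%) that kept less. From 900 bases the numbers were 6 of 15 (40%) and 18 of 46 (39.1%). Their part in the absence of the members was not tested.

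**Figure D4:**
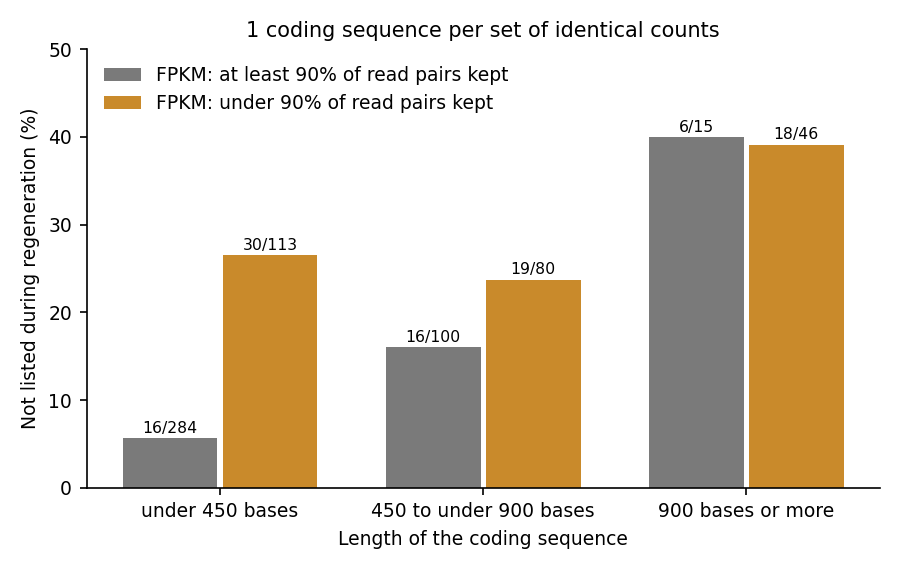
Share (percent) of coding sequences with at least 50 reads before and after that were not listed during regeneration, by length and by the share of read pairs that FPKM kept in both libraries (at least 90%, or less), with 1 coding sequence per set of identical counts. Numbers are unlisted over all; the lowest bar is 16 of 284 and the highest 6 of 15.

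The lowest counts listed also rose with length, in all 3 tables. During regeneration the lowest count was 4 reads under 350 bases, 8 from 350 bases, 8 from 450 bases, 16 from 600 bases and 20 from 900 bases upward. Per kilobase, the 5th percentile of listed counts varied little with length, from 24.2 to 29.2 reads during regeneration, 25.8 to 28.2 before and 24.2 to 27.2 after. Each member's count was projected to the during library from its before and its after level, by TMM-scaled sizes and by library totals, and the lowest of the 4 projections was kept. The minimum of 50 reads by itself places every such projection above the lowest count listed in its length class, so that order is no result. The distance varied among members: the projection was 2.46 times that lowest count for the nearest member, 10.6 times at the median and 753 times for CDS_50279_Unigene_78645. What the members' counts were during regeneration is not known.

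**Figure D5:**
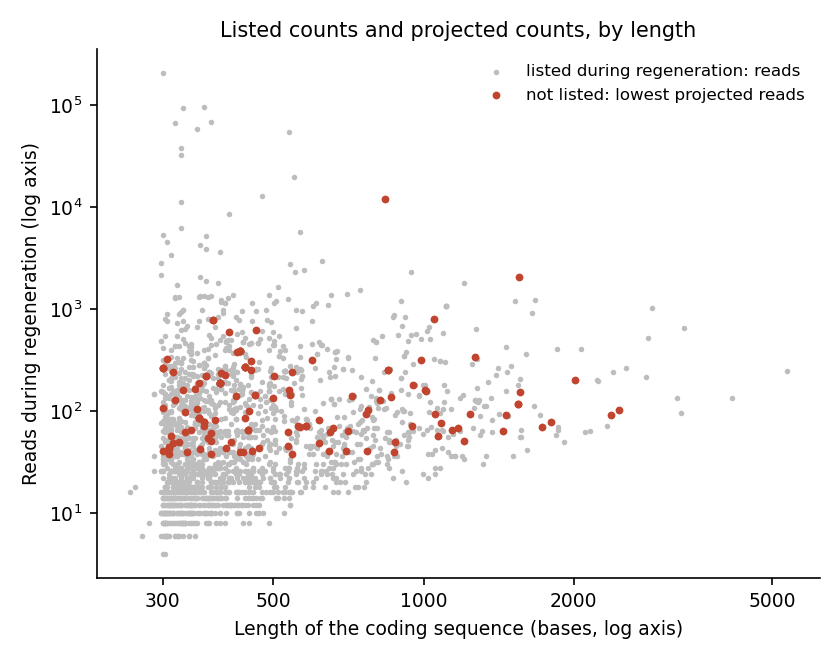
Length (bases, log axis) against reads during regeneration (log axis); grey points are the 1769 listed coding sequences with their counts, and red points the 128 members at the lowest of their 4 projected counts. The lower edge of the grey points rises with length; the minimum of 50 reads places the red points above it, and their distance from it runs from 2.46 to 753 times.

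Neighbours in the Unigene numbering were examined next. Of the 128 members, 42 (32.8%) had an adjacent number listed in some library, against 100 of the 581 (17.2%). For 25 members (19.5%) and 3 of the 581 (0.516%) that neighbour was a member. Only 9 members (7.03%) had an adjacent number listed during regeneration, against 72 of the 581 (12.4%). Every copy in a set of identical counts was counted here, and some sets of members hold consecutive numbers, such as CDS_6425_Unigene_9925 to CDS_6428_Unigene_9928. Neighbours were not recounted once per set, so the 25 include such copies. They also include adjacent members of different length and counts. For example, CDS_49833_Unigene_77980 and CDS_49834_Unigene_77981 (498 and 537 bases) had 174 and 200 reads before. Sets were mostly listed or unlisted together, so the 9 and the 72 also depend in part on copies. The 494 coding sequences listed during regeneration only held 37670 reads in all. By TMM-scaled sizes the members' projected reads summed to 46085 from the before level and 37547 from the after level. By library totals the sums were 73594 and 54536. These sums count every copy in sets of identical counts, so their closeness to 37670 is not read as a match. Of the 128 members, 44 had a during-only sequence of exactly their length among the 163 with at least 50 reads. Such matches of length were not counted for the 581, so the 44 is no result about the members. Without sequences, whether any during-only sequence is a member under another identifier was not tested.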

How the data were processed

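For each of 3 libraries the authors deposited a table of read counts, lengths and FPKM values of coding sequences, per the file headers. The submitters' processing notes name FastQC, Trimmomatic and RSEM, with no versions. Assembler, aligner and listing rule: not given in the sources used here. Libraries were TRIzol RNA made with a stranded mRNA kit, per the labels' protocols.

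The tables were joined by identifier, with missing entries left missing. Counts as deposited were scaled by library total times TMM factors (edgeR 4.0.16, R 4.3.3; 1.206, 0.755 and 1.097 before, during and after) over 887 coding sequences listed in all 3. Library totals are the sums of listed reads. The during total therefore leaves out the members, and every copy in a set of identical counts is summed. With 1 library a stage there is no count test and no p-value. The pseudocount was 1 CPM. Ratio intervals are exact conditional binomial, and shares of reads Clopper-Pearson, both on read pairs. The share of pairs kept by FPKM was estimated from the 0.2 quantile of pairs over FPKM among the 51 coding sequences nearest in length (at least 50 reads). It is approximate and can pass 100%. Both steps were tested on simulated data. Sets are coding sequences with equal length and equal counts before and after; 1 per set means 1 for each combination of length and the 3 counts.

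Named coding sequences are the 10 members with most reads before and after, the 5 highest and 5 lowest after minus before, and the 3 longest. The largest set and 3 on either side of the minimum (by the smaller count, ties by identifier) were also named. The members of split sets and those in the last section were named after their values were seen. Members and rules were chosen with earlier results of these data known. Alternatives were other scalings (library totals, median-of-ratios with DESeq2 1.42.0, FPKM), pseudocounts, read minimums, sets of identical counts and pairs kept.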

Additional observations from a re-analysis of the deposited data

How the results depend on the processing

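With 1 library a stage no library can be left out, no setting tests a difference, and depth limits low members: the median counting interval reached 0.48 to either side on the log2 scale. No paired analysis was possible because each stage has 1 library. The number of members (128) was 433 without a read minimum, and 280, 77 and 46 with minimums of 20, 100 and 200, and 39 where FPKM kept 90% or more of the pairs. The share unlisted during regeneration (18.1%) was 32.8% without a minimum, 27.2% and 13.9% with minimums of 20 and 200, and 9.75% with at least 90% of pairs kept. The share of before reads (6.93%) was 4.57% without CDS_50279_Unigene_78645, 5.96% by FPKM fragments, 8.61% without a minimum and 6.15% with 1 per set. For after reads (5.13%) these were 3.49%, 4.34%, 6.20% and 4.38%. Members at least 2-fold higher after (9) and lower (22) were 22 and 68 of 280 with a minimum of 20. Without a minimum they were 52 and 107 of 433. With at least 90% of pairs kept they were 2 and 4 of 39, and past 4-fold 0 and 1 of 128. For other minimums, pairs kept and 1 per set, all coding sequences were not counted, so these counts are no result about the members. A minimum of 100 gave 13 lower, 1 per set gave 5 higher, and FPKM gave 16 higher (12.8%, beside 10.6% of the others), or 19 centred on its median; each of these settings left the other count within 1.5 times. The minimums and the 4-fold change these counts by construction; for FPKM the cause was not tested. With library totals the median of all 709 went from -0.10 to -0.23, and the counts were 8 and 26. The members' median (-0.18) lay between -0.34 and -0.10 over all alternatives. Of the 17 named members past 2-fold, 17 stayed so by library totals and by FPKM and 16 with a pseudocount of 5. CDS_7807_Unigene_12036 was at -0.45 by counts and 1.72 by FPKM.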

Other observations

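Some members had relatives by number that were listed during regeneration; these cases were picked after their values were seen, and closeness of numbers is not shown to mean closeness of sequence. CDS_23540_Unigene_36539, CDS_23541_Unigene_36540 and CDS_23542_Unigene_36541 had 162, 120 and 94 reads before and 112, 72 and 58 after, and none was listed during regeneration. The next number, CDS_23543_Unigene_36542 (390 bases), had 122 reads before, 28 during and 80 after. CDS_13405_Unigene_20712 (1068 bases, 66 and 188 reads) lay 2 numbers from CDS_13407_Unigene_20714 (1065 bases), which had 48, 108 and 106 reads. CDS_21265_Unigene_33048 (429 bases, 150 and 52 reads) lay beside CDS_21266_Unigene_33049 (1197 bases), which had 458, 144 and 246 reads. In all, 19 of the 128 members had a number within 3 that was listed during regeneration. This was not counted for the 581, so it is no trait of the members. An adjacent number listed during regeneration was less common in members (7.03%) than in the 581 (12.4%). Every copy was counted, and sets of identical counts were mostly listed or unlisted together. The difference therefore depends in part on copies and is no trait of the members.

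Several members shared their length and counts with other members. Besides those already described, CDS_19691_Unigene_30619, CDS_19692_Unigene_30620, CDS_19693_Unigene_30621 and CDS_19694_Unigene_30623 (438 bases) each had 312 reads before and 370 after, at a log2 difference of 0.06. CDS_18065_Unigene_28066, CDS_27380_Unigene_42645 and CDS_50977_Unigene_79689 (300 bases) each had 308 and 358 reads, at 0.03. The numbers of the first set are close together and those of the second lie far apart, while FPKM was equal within each set, at 436 before in the first and 1271 in the second.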
